A study of Mus musculus with 2 samples.

Results

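The JAK-STAT genes examined here are *Stat2*, *Stat3*, *Stat4*, *Stat5a*, *Stat5b*, *Stat6*, *Jak1*, *Jak2* and *Socs3*, 9 of the 21938 protein-coding genes in the annotation. They were chosen by a measured value, a strong peak assigned to a *Stat3* promoter and called in the list labelled WT only, so that peak, the ranks of the *Stat3* peaks and the calls at this gene are a description and support nothing. Their regions, taken as the gene body with 10 kb upstream or 3 kb to each side of any transcript start, held 36 of the 77596 peaks labelled WT and 42 of the 100431 peaks labelled Bmi1-/-.

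In ATAC-seq, the Tn5 transposase cuts open DNA more often than packed DNA, so that a pile of fragments marks accessible chromatin. The organ of Corti, the sensory strip of the cochlea with its hair cells and supporting cells, was taken from pooled P2 mice that were either WT or Bmi1-/-, a constitutive null of a Polycomb gene, and both genotypes came as littermates from Bmi1+/- parents backcrossed to C57BL/6J. There was 1 library per genotype and therefore no test between genotypes, and intervals given here cover counting error only. The peak names inside each list carry the prefix of the other genotype (100% of names in both), so the libraries are called labelled WT and labelled Bmi1-/-, and every direction below rests on those labels.

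The libraries differed in ways that touch each result. The commonest local background at a summit was 6.32 fragments in the library labelled WT and 8.04 in the library labelled Bmi1-/-, and 52.4% and 62.8% of their peaks had a q-value of at most 0.05. At *Bmi1* itself the list labelled WT held 1 peak (chr2:18677082-18677406, 40.1th percentile of its list) and the list labelled Bmi1-/- held 4, the highest at the 92.0th percentile; where the null allele is altered is not known from the files, so these peaks do not check the labels. Over all protein-coding genes 53.0% had a promoter peak (centre within 3 kb of any transcript start) in both lists, 6.10% labelled WT only and 15.2% labelled Bmi1-/- only. In neither list had 5640 of the 21938 genes one. Of 8 hair cell markers 6 had a promoter peak in both lists, 1 (*Pvalb*) in the list labelled WT only and 1 (*Otof*) in the list labelled Bmi1-/- only, and of 8 supporting cell markers 7 had one in both and *Tecta* in the list labelled Bmi1-/- only. Among 8 blood and macrophage markers, 5 (*Csf1r*, *Cx3cr1*, *Spi1*, *Aif1* and *Itgam*) had a promoter peak only in the list labelled WT, at the 28.3th to 70.8th percentiles, while *Ptprc*, *Hbb-bs* and *Gata1* had none in either. The q-values at *Cx3cr1*, *Spi1* and *Aif1* were above 0.05 (−log10 q 1.15, 1.14 and 0.969). In their whole regions the 5 genes, in the order named, held 2, 18, 3, 0 and 4 peaks labelled Bmi1-/- and 1, 17, 4, 2 and 1 labelled WT. With a promoter peak in both lists, labelled WT only, labelled Bmi1-/- only and in neither there were 5, 1, 2 and 0 of 8 neuron markers, 4, 0, 1 and 3 glia markers, 2, 2, 2 and 2 mesenchyme markers, and 5, 2, 1 and 0 endothelium markers. The tissue was sampled in bulk, so fewer cells of a type and less accessible chromatin per cell cannot be told apart.

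Janus kinases (JAK1, JAK2, JAK3, TYK2) sit on the inner face of cytokine receptors and phosphorylate STAT proteins, which dimerise, enter the nucleus and bind a palindromic DNA site. STAT3 relays the IL-6 family of cytokines, STAT5A and STAT5B relay growth hormone and prolactin, STAT6 relays IL-4, STAT4 relays IL-12, and STAT2 works with IRF9 downstream of type I interferon. SOCS3 is induced by STAT3 and shuts the receptor complex down, which closes the loop.

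4 regions show the range found at these genes. The first is the peak inside *Stat3* that chose the genes, at chr11:100894272-100894561 (GRCm38, minus strand, as the gene reads). The capitals mark the summit with 10 bases to each side.

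Stat3 intragenic peak: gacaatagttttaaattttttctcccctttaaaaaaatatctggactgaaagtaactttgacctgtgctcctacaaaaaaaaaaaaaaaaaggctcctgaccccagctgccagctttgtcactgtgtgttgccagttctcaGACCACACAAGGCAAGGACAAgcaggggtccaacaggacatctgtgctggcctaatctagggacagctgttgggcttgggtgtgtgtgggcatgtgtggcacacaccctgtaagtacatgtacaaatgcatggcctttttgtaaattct

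The sequence lies in an intron, holds 44.5% GC and 0 CpG, and 35.2% of it is repeat-masked. The second is the *Stat3* promoter upstream of the RefSeq start (RefSeq, GRCm38.p6, chr11:100939595-100939790, minus strand), ending where a predicted RefSeq exon begins. Capitals mark bases inside the peak labelled Bmi1-/-, here all 196, and all 196 are also inside the peak labelled WT.

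Stat3 promoter: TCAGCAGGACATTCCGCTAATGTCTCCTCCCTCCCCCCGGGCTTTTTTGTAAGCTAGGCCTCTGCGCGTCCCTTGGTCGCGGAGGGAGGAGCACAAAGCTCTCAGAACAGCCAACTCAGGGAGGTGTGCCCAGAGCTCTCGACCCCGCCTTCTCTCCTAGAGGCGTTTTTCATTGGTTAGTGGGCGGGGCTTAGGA

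This window has 59.2% GC and 10 CpG. For *Stat6* and *Stat4* the same kind of window is shown (RefSeq, GRCm38.p6, chr10:127642736-127642954 and chr1:51986898-51987105, plus strand), because these starts were covered in 1 list or in neither. The capitals have the same meaning.

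Stat6 promoter: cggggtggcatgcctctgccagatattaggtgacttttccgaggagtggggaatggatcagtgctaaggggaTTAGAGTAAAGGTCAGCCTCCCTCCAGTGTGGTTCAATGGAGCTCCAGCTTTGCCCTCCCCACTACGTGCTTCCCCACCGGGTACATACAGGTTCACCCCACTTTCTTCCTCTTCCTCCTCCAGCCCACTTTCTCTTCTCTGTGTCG

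Stat4 promoter: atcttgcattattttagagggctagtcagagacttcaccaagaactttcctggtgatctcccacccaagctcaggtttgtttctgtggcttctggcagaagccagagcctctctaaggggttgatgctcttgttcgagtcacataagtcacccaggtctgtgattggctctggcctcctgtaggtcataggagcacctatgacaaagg

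In *Stat6* 147 of the 219 bases lie inside the peak labelled Bmi1-/- and 0 inside a peak labelled WT. In *Stat4* 0 of the 208 bases lie inside a peak of either list, and the window has 49.5% GC and 1 CpG.

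Of the 9 genes, 8 had a promoter peak in both lists, against 53.0% of all protein-coding genes. *Stat4* had one in the list labelled Bmi1-/- only (background 15.2%). None had one in the list labelled WT only (background 6.10%), and none lacked one in both (background 5640 of 21938 genes). The 8 include *Stat3*, which chose the genes. Any start counts, and the 9 genes have 3 to 14 starts each, for which the background was not matched. A call in both lists does not require the same peak. The strongest promoter peaks of the lists overlapped only at *Jak1*, *Jak2* and *Socs3*. Because fold enrichment and −log10 p of separate peak calls are not on a common scale, each peak was placed by its −log10 p within its own list, as a percentile at which 100 would be the strongest and tied peaks share their mean place. By this measure 7 of the 9 genes had their strongest promoter peak at a higher place labelled Bmi1-/- than labelled WT, *Stat4* included, beside 68.6% of the 16298 protein-coding genes that had any promoter peak. The exceptions were *Stat3* and *Stat5a*, and *Stat3* was one only through the intragenic peak that chose the genes. With starts of coding transcripts alone *Stat3* stood at 99.4 labelled WT and 99.5 labelled Bmi1-/-, and the count was 8 of 9. With an equal number of peaks taken from both lists *Jak2* stood at 97.4 and 96.7, *Stat4* had no promoter peak, and the count was 5. The share of 68.6% holds for all starts and full lists, and none was computed under these settings. The counts of 8 and 5 therefore have no background. Over the 8 genes with a value in both lists the median difference, labelled Bmi1-/- minus labelled WT, was 3.96 percentile points, and over all genes 5.29.

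**Figure D1:**
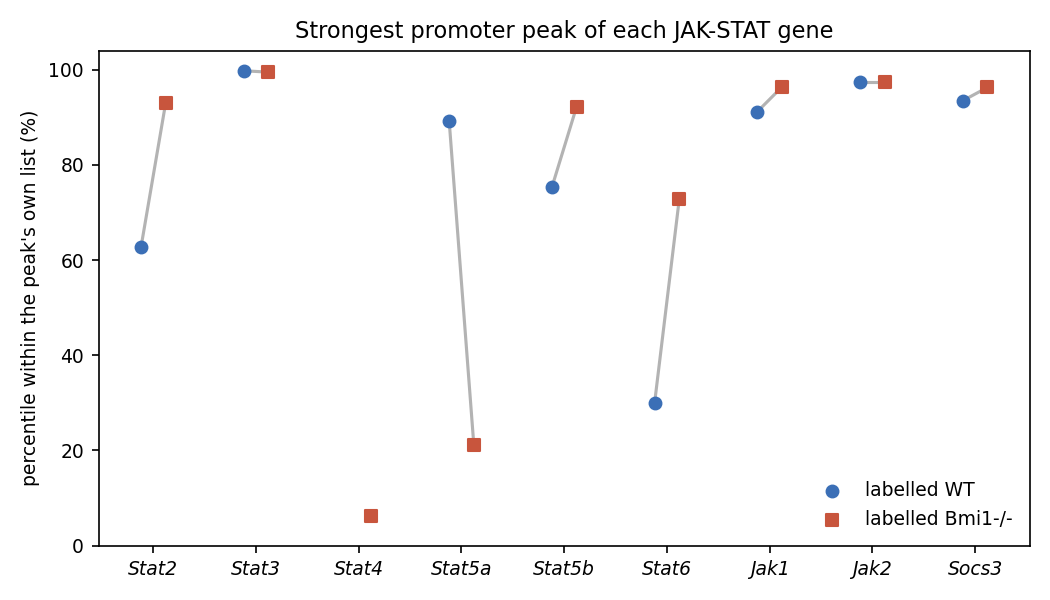
Percentile of the strongest promoter peak of each gene within its own list (y axis, %), for the 9 genes (x axis). Circles are the library labelled WT and squares the library labelled Bmi1-/-, joined where both exist; *Stat3*, *Jak2*, *Jak1* and *Socs3* are above 90 in both, while *Stat5a* is at 89.3 labelled WT and 21.2 labelled Bmi1-/- and *Stat4* has a square only, at 6.15.

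*Stat3*, the transcription factor of the IL-6 family, is transcribed from the minus strand of chromosome 11 (100885098 to 100939540). At its main promoter both lists held a strong peak, chr11:100939051-100939828 labelled WT and chr11:100939138-100940205 labelled Bmi1-/-. The pileup of fragments at the summit was 35 over a background of 8.26 in the former and 55 over 12.92 in the latter. These are 4.24 and 4.26 times background, at the 99.4th and 99.5th percentiles, with a ratio of 1.0 between them (95% interval 0.646 to 1.58). A difference at the main *Stat3* start smaller than that interval was not detectable at this depth.

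The *Stat3* peak that chose the genes lies elsewhere. It had a fold enrichment of 5.5, a −log10 p of 24.5 and a −log10 q of 19.6, stood 135th in the list labelled WT (99.8th percentile), and had a pileup of 54 (exact Poisson interval 40.6 to 70.5) over a background of 9.0. Its centre is 45.0 kb from the nearest start of a coding transcript and 16 bp from the start of an annotated transcript that retains an intron. Of the 4 *Stat3* starts within 3 kb, 0 belong to coding transcripts. The peak falls between coding exons 17 (100894701 to 100894836) and 18 (100894164 to 100894216) of all 4 coding transcripts, 139 and 55 bp from them, and covers 0 coding bases. The name promoter therefore holds for this peak only through noncoding transcripts, and it is called intragenic here. A search of the genome with its 290 bases returned 1 alignment of that length, the peak itself.

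In the list labelled Bmi1-/- no peak overlapped it. The nearest was 306 bp away towards the 3′ end of the gene (chr11:100893671-100893965), with a pileup of 29 over a background of 11.62 (75.5th percentile). On the other side the nearest was 6721 bp away (chr11:100901283-100901699), with 28 over 9.1. At those backgrounds a pileup of 20 and of 17 would have reached the lowest −log10 p that list holds. Among the 295 peaks labelled WT with a −log10 q of at least 10, 4 (1.36%) had no overlap in the other list, and the *Stat3* intragenic peak is 1 of them. The other 3 are at chr6:114565377-114565684 (77.6 kb from a start of *Atg7*), chr6:116539219-116539604 (0.956 kb from *Olfr213*) and chr8:55519141-55519565 (388 kb from *Adam29*), and were named after their values were seen. In the opposite direction, 26 of 1027 peaks labelled Bmi1-/- at that threshold had no overlap (2.53%). Promoters of some macrophage, mesenchyme, endothelium, neuron and hair cell markers were also called in the list labelled WT only, as given above. Other markers of the last 4 were called in the list labelled Bmi1-/- only. The part of any cell type in the *Stat3* intragenic peak was not tested.

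**Figure D2:**
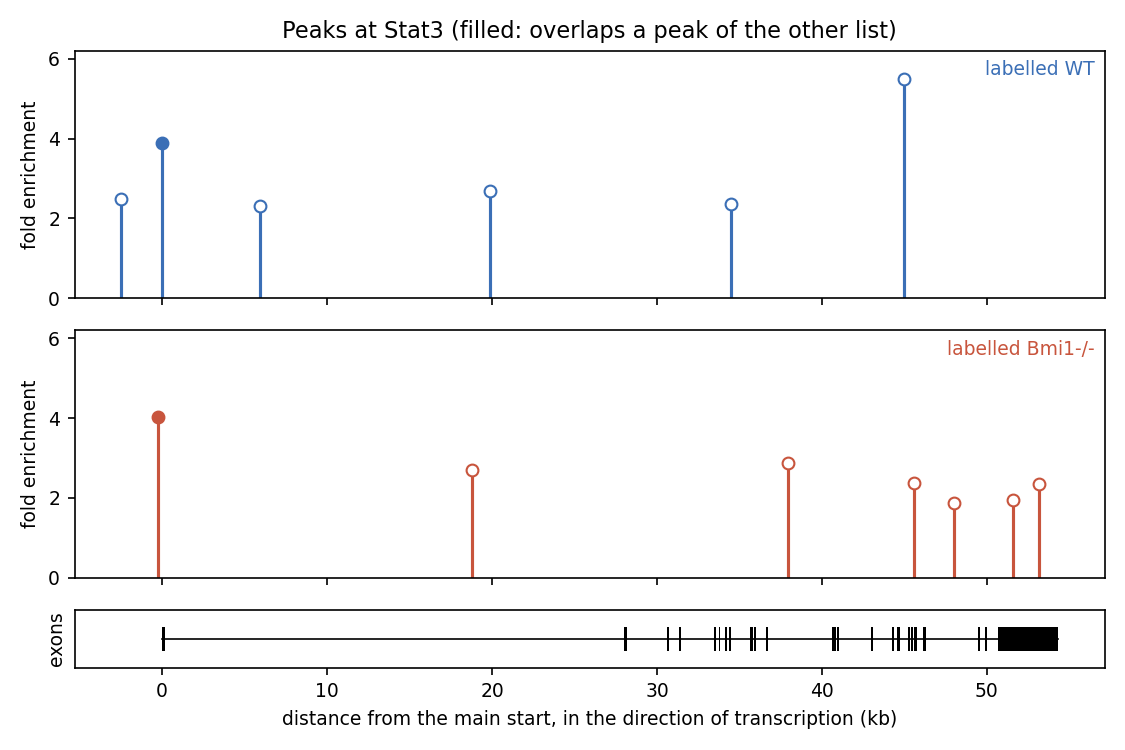
Fold enrichment (y axis) of every peak in the *Stat3* region against the distance of its centre from the main start in kb (x axis), labelled WT above and labelled Bmi1-/- below, with the exons of the longest coding transcript at the bottom. Filled points overlap a peak of the other list, which holds only at the main start; the open point at 45.0 kb with a fold enrichment of 5.5 is the intragenic peak.

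The remaining *Stat3* peaks were weaker, with percentiles of 27.9 to 73.8 for the 4 labelled WT and 10.7 to 90.9 for the 6 labelled Bmi1-/-. None of them overlapped a peak of the other list. In all, 1 of 6 peaks labelled WT and 1 of 7 labelled Bmi1-/- were shared at this gene.

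Among the other STAT genes, *Stat5a* and *Stat5b* start close to each other on opposite strands, so the upstream region of each holds the start of the other, and 2 peaks labelled WT and 1 labelled Bmi1-/- are counted for both genes. At the *Stat5a* start the list labelled WT held a peak at chr11:100860227-100860542 (pileup 26 over 8.92, 89.3th percentile) and another at chr11:100860740-100860946 (24 over 8.76, 76.7th). In the list labelled Bmi1-/- the *Stat5a* promoter peak lay further downstream, at chr11:100861184-100861586, with 23 over 11.02 (21.2th percentile), and did not overlap either. The difference in percentile at *Stat5a*, labelled Bmi1-/- minus labelled WT, was -68.1 points, the lowest of the 9 genes. The q-value of its promoter peak labelled Bmi1-/- was above 0.05 (−log10 q 0.974).

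At the *Stat5b* start the order was the other way. The peak labelled WT was 207 bp wide with 21 over 7.94 (chr11:100850194-100850400, 61.6th percentile), and the peak labelled Bmi1-/- was 840 bp wide with 29 over 9.48 (chr11:100849997-100850836, 92.2th percentile). The wider peak contained the narrower, and the ratio of their heights over background was 1.16 (0.637 to 2.13), an interval that includes 1. The strongest promoter peak labelled WT at *Stat5b* was another, chr11:100819999-100820198, at the 75.3th percentile and 2429 bp from a second coding start.

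*Stat2*, the interferon transducer, had a peak at its start in both lists, with 18 over 6.32 (56.8th percentile) labelled WT and 27 over 8.08 (93.0th) labelled Bmi1-/-. The ratio was 1.17 (0.623 to 2.26). Its strongest promoter peak labelled WT was at the start of a noncoding transcript (chr10:128283210-128283673, 62.7th percentile), where the list labelled Bmi1-/- held a separate peak further downstream (chr10:128283983-128284498, 84.3th). The start of *Apof* is also within 3 kb of the *Stat2* start peaks, which belong to both genes.

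*Stat6*, the IL-4 transducer, shared no peak between the lists. The list labelled WT held 16 over 7.46 at chr10:127642123-127642437, 706 bp from the coding start and at the 3.54th percentile, and the list labelled Bmi1-/- held 22 over 9.78 at chr10:127642808-127643270, at the start itself and at the 34.5th percentile. The second pair, near the 3′ end of the gene at noncoding starts, was also without an overlap, at the 30.0th percentile labelled WT and the 72.8th labelled Bmi1-/-. Both coding start peaks had q-values above 0.05 (−log10 q of 0.566 and 1.16).

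*Stat4*, the IL-12 transducer best known from lymphocytes, had the lowest percentile of a strongest promoter peak among the 9 genes. No peak of either list covered any of its RefSeq promoter bases. The list labelled Bmi1-/- held 7 peaks in its 130.0 kb region and the list labelled WT 3, with 0 shared, and the 2 counted as promoter peaks labelled Bmi1-/- were both at the 6.15th percentile, with a pileup of 17 over 8.04. The highest *Stat4* peak labelled Bmi1-/- lay in an intron (chr1:51996743-51997003, 88.6th percentile), and the highest labelled WT also in an intron (chr1:52048431-52048674, 70.8th).

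The kinases had peaks in both lists that overlapped at their starts. At the *Jak2* start the peak labelled WT had 28 over 7.76 (chr19:29251007-29251831) and that labelled Bmi1-/- had 35 over 9.46 (chr19:29251246-29252174), both at the 97.4th percentile. The ratio was 1.03 (0.606 to 1.75). A second *Jak2* peak labelled WT, 200 bp wide, also overlapped the same peak labelled Bmi1-/-, by 182 bp. *Jak2* was also the gene with the fewest peaks labelled Bmi1-/- (1, against 3 labelled WT), the third labelled WT being intronic at chr19:29264838-29265322 (92.1th percentile).

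At the *Jak1* start the heights were 22 over 6.34 labelled WT (chr4:101264588-101265469, 91.2th percentile) and 30 over 8.04 labelled Bmi1-/- (chr4:101264554-101265446, 96.4th), a ratio of 1.08 (0.6 to 1.96). *Jak1* held the most peaks of the 9 genes, 8 labelled WT and 9 labelled Bmi1-/-, of which 3 in each list were shared. 1 of the shared *Jak1* peaks lies in an intron, 24866 bp from the nearest coding start labelled WT. It was 236 bp wide with 19 over 6.32 labelled WT (chr4:101240289-101240524, 70.8th percentile) and 1244 bp wide with 33 over 8.04 labelled Bmi1-/- (chr4:101239388-101240631, 97.9th), where it ranked above the *Jak1* promoter. The ratio, 1.37 (0.754 to 2.54), was the highest of the overlapping pairs and its interval includes 1.

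*Socs3*, the feedback inhibitor, is a compact gene of 3.97 kb, and its 1 peak labelled WT (chr11:117969159-117969602, 30 over 10.3, 93.5th percentile) overlapped the first of 2 labelled Bmi1-/- (chr11:117968519-117969531, 44 over 15.34, 96.3th). Their heights were 2.91 and 2.87 times background, with a ratio of 0.985 (0.605 to 1.62). The second peak labelled Bmi1-/-, 937 bp from the start, stood at the 11.4th percentile.

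Across the genes, 10 pairs of peaks overlapped. The ratio of height over background, labelled Bmi1-/- over labelled WT, ran from 0.851 to 1.37 and was above 1 before rounding in 8 pairs, the *Stat3* promoter included, beside 43.5% among all 19568 overlapping pairs of the lists. In 0 of the 10 did the counting interval leave out 1, and the *Jak2* pairs share their peak labelled Bmi1-/-. The intervals are wide, and at this depth a difference of the size of 1.37-fold was not detectable in a single pair. The peak labelled Bmi1-/- was the wider in 10 of 10 pairs, beside 65.8% of all overlapping pairs. The shares of 43.5% and 65.8% cover pairs at any place, while most of the 10 lie at coding starts, so place was not matched.

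**Figure D3:**
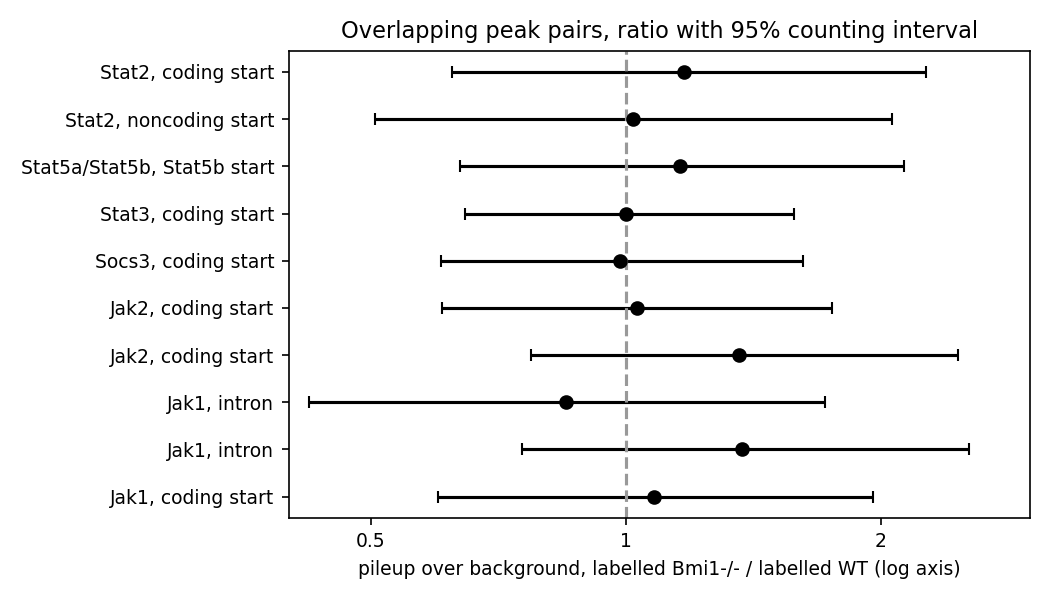
Ratio of pileup over background, labelled Bmi1-/- over labelled WT (x axis, log scale), for the 10 overlapping peak pairs (y axis, gene and place of the peak labelled WT). Points are ratios and bars their exact 95% counting intervals; all 10 bars cross the dashed line at 1.

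Most peaks at these genes were in 1 list only. Of the 36 peaks labelled WT, 26 had no overlap (background 75.2%), so that 10 were shared (27.8%, exact binomial interval 14.2 to 45.2). Of the 42 labelled Bmi1-/-, 33 had none (background 81.5%) and 9 were shared (21.4%, 10.3 to 36.8). Both shares are near those of the whole lists. At promoters 8 of 20 peaks labelled WT (40.0%, 19.1 to 63.9) and 7 of 20 labelled Bmi1-/- (35.0%, 15.4 to 59.2) were shared, beside 48.8% and 36.6% of the promoter peaks of all protein-coding genes.

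**Figure D4:**
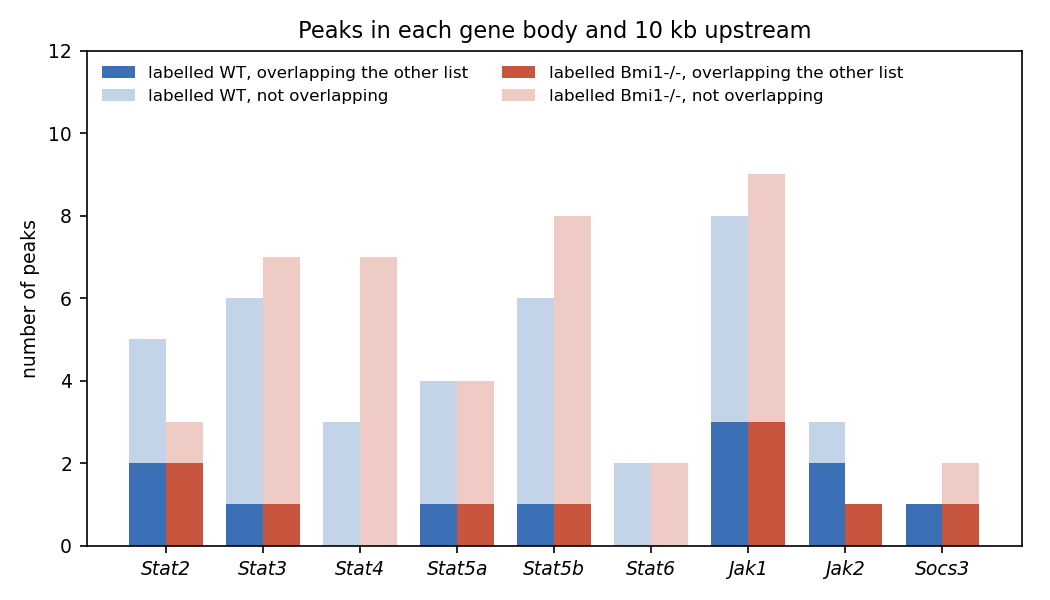
Number of peaks (y axis) in the body and upstream 10 kb, or within 3 kb of a start, of each gene (x axis), blue for labelled WT and red for labelled Bmi1-/-. Dark parts overlap a peak of the other list and light parts do not; *Stat4* and *Stat6* have 0 dark parts, and *Jak1* has the most, 3 in each list.

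Peaks at coding starts and elsewhere differed in base composition, a feature the choice of genes did not use, here counted within 100 bp of each summit and not over the whole peak as for the printed *Stat3* sequence. The 13 distinct peaks labelled WT at coding starts had a median GC of 64.2% and a median of 14 CpG, and the 23 elsewhere 50.7% and 1. Labelled Bmi1-/-, the 11 at coding starts had 61.2% and 11 CpG and the 31 elsewhere 51.7% and 2. The median over each whole list was 52.7% GC, with 3 CpG labelled WT and 2 labelled Bmi1-/-. Coding-start peaks of all genes were not measured, so whether the contrast is particular to these genes was not tested.

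The palindrome that STAT dimers bind was searched as TTCNNNGAA, which reads the same on both strands, within 100 bp of each summit. It was found in 3 of 36 peaks labelled WT (8.33%, 1.75 to 22.5) and 1 of 42 labelled Bmi1-/- (2.38%, 0.0603 to 12.6), beside 3.72% and 3.63% of all peaks of the lists. In this window the background lies inside both intervals, and the *Stat3* intragenic peak holds no match in its 290 bases. Over whole peaks it lies below the interval labelled WT, as given in the closing section. The 3 sites are shown with 10 bases to each side, the palindrome in capitals, as chr11:100860835-100860843 (plus strand), chr11:117969239-117969247 (minus) and chr4:101240441-101240449 (minus), GRCm38.

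Stat5a site: agcccagggcTTCCCCGAAgacagcgtgg

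Socs3 site: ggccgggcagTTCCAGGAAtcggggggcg

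Jak1 site: ttggggcagcTTCTAGGAAtcacatggat

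The *Socs3* site is within the peaks of both lists, 57 bp from the coding start, and also matches the stricter form TTCCNGGAA, which 0.419% of peaks labelled WT and 0.460% labelled Bmi1-/- hold in the same window. The *Stat5a* site, 355 bp from a coding start and 1 bp from the summit, is in a peak labelled WT only. The *Jak1* site belongs to the intronic peak described above and is within 100 bp of its summit only in the list labelled WT. In the 300-base promoters of RefSeq, 8.30% of 32851 hold TTCNNNGAA, and of the 12 belonging to the 9 genes 1 does (*Socs3*). That match reads TTCTTAGAA and is not the *Socs3* site shown above, and 0 of the 12 hold TTCCNGGAA. A match describes letters and not a bound site.

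A further 61 genes of the pathway were listed by role. Of these, 39 had a promoter peak in both lists, 6 in the list labelled WT only, 12 in the list labelled Bmi1-/- only and 4 in neither. Over all protein-coding genes the shares were 53.0%, 6.10% and 15.2%, and each role list below is to be read against them. Of the 57 with a peak, 39 had their strongest promoter peak at a higher place labelled Bmi1-/-, beside 68.6% of all genes with one, and the median difference was 6.89 points, beside 5.29 over all genes.

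Of 2 further kinase genes, *Tyk2* had a promoter peak labelled Bmi1-/- only (96.5th percentile). *Jak3*, the kinase of the common gamma chain receptors, stood at 93.1 labelled WT and 20.9 labelled Bmi1-/-. Of 7 other SOCS genes, which encode inhibitors of cytokine signalling, 6 had a peak in both lists and *Cish* had one labelled WT only, at the 18.5th percentile. *Socs1* stood at 46.5 labelled WT and 97.1 labelled Bmi1-/-, and *Socs5* at 77.3 and 99.8. All 8 other inhibitors had a promoter peak in both lists, with the widest differences at *Pias2* (33.6 labelled WT, 97.2 labelled Bmi1-/-) and the phosphatase gene *Ptpn6* (77.4 and 20.1). The q-value was above 0.05 at *Cish* (−log10 q 0.904). So was that of the lower-placed peak at *Jak3* (0.953), *Socs1* (1.25), *Pias2* (1.15) and *Ptpn6* (0.896).

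Of 8 ligands of the IL-6 family, 4 had a promoter peak in both lists. *Lif* and *Ctf1* had one labelled WT only, at the 14.0th and 27.4th percentiles, *Il6* one labelled Bmi1-/- only at the 78.0th, and *Cntf* none. Within this list *Osm* stood at 12.9 labelled WT and 66.4 labelled Bmi1-/-, and *Il11* at 62.2 and 82.2. The peaks labelled WT at *Lif*, *Ctf1* and *Osm* had q-values above 0.05 (−log10 q 0.798, 0.919 and 0.741).

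Of 20 receptor genes, 10 had a promoter peak in both lists, 6 labelled Bmi1-/- only and 2 labelled WT only, and *Prlr* and *Il2rg* had none. Those labelled Bmi1-/- only were *Il6st* at the 97.7th percentile, which encodes gp130, the shared signalling chain of the IL-6 family, *Cntfr* (78.0), *Il11ra1* (80.7), *Ghr* (93.9), *Epor* (72.5) and *Il10rb* (63.6). Those labelled WT only were *Osmr* (23.3) and *Il13ra1* (40.1). The widest differences among the shared were *Il4ra*, 13.5 labelled WT and 75.2 labelled Bmi1-/-, and *Ifnar2*, 6.35 and 57.8. Labelled WT, the peaks at *Osmr*, *Il13ra1*, *Il4ra* and *Ifnar2* had q-values above 0.05 (−log10 q 0.904, 1.15, 0.778 and 0.688).

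Of 16 STAT target genes, 10 had a promoter peak in both lists, *Gfap* (2.19), *Icam1* (48.8), *Irf9* (74.4) and *Mcl1* (81.3) in the list labelled Bmi1-/- only, *Bcl3* (84.2) in the list labelled WT only, and *Timp1* in neither. *Ccnd1*, which encodes cyclin D1, stood at 1.32 labelled WT and 80.2 labelled Bmi1-/-, and *Myc* at 14.8 and 73.5. Their peaks labelled WT had q-values above 0.05 (−log10 q 0.496 and 0.826), as had the *Gfap* peak labelled Bmi1-/- (0.476).

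**Figure D5:**
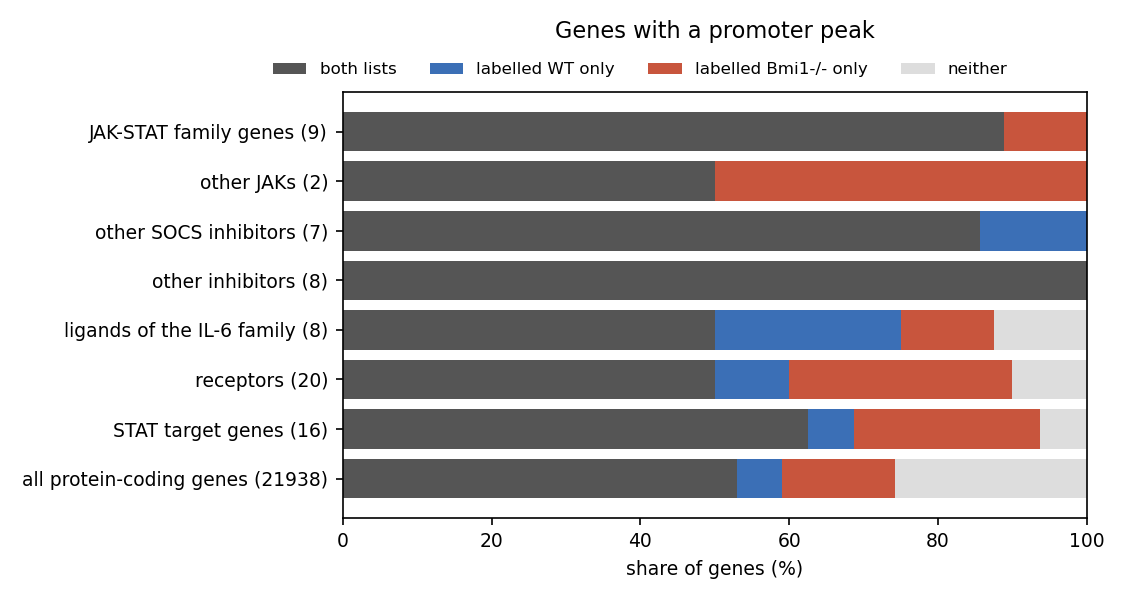
Share of genes (x axis, %) with a promoter peak in both lists, labelled WT only, labelled Bmi1-/- only or neither, for the 9 JAK-STAT genes, the 6 pathway lists and all protein-coding genes (y axis, number of genes in brackets). Of the 9 genes, which include *Stat3* that chose them, 88.9% are in both lists beside 53.0% of all protein-coding genes. The lists are small, and the background is not matched for the number of starts.

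The 3 kb limit fell between a *Stat5b* peak labelled Bmi1-/- at 2799 bp (78.0th percentile) and a *Jak1* peak labelled Bmi1-/- at 3630 bp (2.87th). The 10 kb limit upstream fell between peaks labelled WT at 9661 bp (89.3th percentile) and 10119 bp (76.7th) from *Stat5b*, both of which are at the *Stat5a* start.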

How the data were processed

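ATAC-seq peaks of 1 library per genotype were analysed, with genotypes taken from the labels. The authors removed adapters and low-quality bases, aligned reads by BWA-MEM and ran MACS2 separately on the libraries. The build mm10 is from the submitters' processing notes, and the MACS2 version and options are not given in the sources used here. In the deposited fold enrichment, a ratio, the summit pileup plus 1 is divided by the local background plus 1. The deposited −log10 p-value is a Poisson tail of the pileup at that background, and the deposited −log10 q-value is the adjusted value as the peak caller gave it for that library. The deposited score was left aside. The lowest deposited −log10 p was 2.00. No read totals were given, so only the solved background stands for depth.

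Peaks on unplaced sequences were dropped, which left 77596 of 77826 labelled WT and 100431 of 100668 labelled Bmi1-/-. Pileup and background were solved from the fold enrichment and −log10 p, which gave a whole pileup for 100% of peaks to within 0.01 of the deposited −log10 p, and for 2000 of 2000 simulated peaks. Transcript starts were those of GENCODE vM21. Peaks were shared when they overlapped by at least 1 bp. Shares have exact Clopper-Pearson intervals and ratios exact conditional intervals at 95%. Some pathway genes are not reported here. The 9 genes, the pathway and marker lists and the rules were chosen with earlier results of these data known. Named pathway genes are those with a promoter peak in 1 list only and, per list, the 2 with the largest percentile difference. The alternatives were thresholds on q, equal peak numbers, other overlaps, starts, windows and motifs, and a scaling to the WT background. Python 3.11.15, numpy 2.4.6, pandas 2.3.3, scipy 1.17.1, matplotlib 3.10.9 and blastn 2.17.0 were used.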

Additional observations from a re-analysis of the deposited data

How the results depend on the processing

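No paired analysis was possible because there was 1 library per genotype and the labels carry no replicate numbers. With peaks of a q-value of at most 0.05 only, 20 peaks labelled WT and 27 labelled Bmi1-/- were left at the 9 genes. Of these genes, 6 had a promoter peak in both lists, against 8 without this threshold. *Stat5a* had one labelled WT only (1 gene), *Stat6* labelled Bmi1-/- only (1 gene) and *Stat4* none in either list (1 gene). Of the 61 other pathway genes, 26 had one in both lists, 5 labelled WT only, 18 labelled Bmi1-/- only and 12 in neither. No share over all genes was computed at this threshold. With a −log10 q of at least 5, 1262 peaks were left in the whole list labelled WT and 4246 in that labelled Bmi1-/-. At the 9 genes 2 and 5 were left, of which 1 of 2 (50%) and 1 of 5 (20%) were shared. 1 of the 9 genes (*Stat3*) kept a promoter peak in both lists, 3 labelled Bmi1-/- only and 5 in neither, and 3 ranked higher labelled Bmi1-/-. Of the other pathway genes 1 had a peak in both lists, 1 labelled WT only, 12 labelled Bmi1-/- only and 47 in neither. Here too no share over all genes was computed. With both lists limited to an equal number of peaks, the 9 genes had 1 labelled WT only (*Stat5a*), 0 labelled Bmi1-/- only and 1 in neither (*Stat4*). When peaks at most 500 bp apart were counted as shared, the shared part was 44.4% of peaks labelled WT and 38.1% of those labelled Bmi1-/-, and the *Stat3* intragenic peak was no longer unshared (0 such peaks). No share over all peaks was computed with this rule, and the shares at 1 bp are no background for it. With starts of coding transcripts, or of the longest one only, it was no promoter peak (0 in both), and with the longest one 8 other pathway genes had no promoter peak. The palindrome with a spacer of 4 bases was in 1 of 36 peaks labelled WT and 3 of 42 labelled Bmi1-/-. These are 2.78% and 7.14%, beside 3.16% and 3.1% of all peaks. In the whole peak TTCNNNGAA was in 6 of 36 (16.7%, 6.37 to 32.8) and 4 of 42 (9.52%, 2.66 to 22.6). Beside them stand 5.86% and 6.45% of all peaks, and the first lies below its interval. The reason was not tested. Of 119 recomputed percentiles of single genes, 99 were within 5 points. The alternatives on overlap cannot change a percentile, so their part of the 99 was fixed in advance. With a reciprocal overlap of 50%, the shared part was 16.7% labelled WT and 14.3% labelled Bmi1-/-, again with no share over all peaks computed. A 1 kb promoter moved none of the recomputed counts by more than 1.5 times. With 3 kb upstream only the peak numbers and shared parts at the 9 genes were recomputed, and they stayed within that limit. Scaling the peaks labelled Bmi1-/- to the background labelled WT kept 100113 of 100431 peaks. Only peak numbers, shared parts and promoter calls of the 9 genes were recomputed there, and they stayed within that limit. With so few peaks lost these counts could hardly move, so the scaling does not check the ranks or the difference in depth. With coding starts or the longest one 8 of the 9 genes, and with equal peak numbers 5, ranked higher labelled Bmi1-/-, and no share over all genes was computed under these settings. The cause of these changes was not tested beyond the construction of each alternative. With a background of 6 to 8 fragments, single peaks carry wide counting intervals.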
